A study of Mus musculus with 18 samples.

Results

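The comparison described here is the change of the thymocyte transcriptome between 2 sorted wild-type populations, CD4 single-positive (CD4 SP) and double-positive (DP) thymocytes. It rests on the arrays labelled CD4 SP wt (3) and DP wt (3), 6 of the 18 arrays of the series. The DP wt and CD4 SP wt cells came from C57Bl/6N wild-type mice of 4 to 6 weeks. CD8 single-positive (CD8 SP) wt arrays (3) served as a second comparison, as did DP cKO (3) and CD4 SP cKO (3) arrays, from mice of the same age and strain label in which FoxN1-Cre deleted exon 3 of Gpr177 (now Wls), a carrier of WNT proteins to the cell surface. FoxN1-Cre is active in thymic epithelium and not in the thymocytes that were arrayed. All groups used 200 ng of RNA, converted to biotin-labelled cRNA, on Illumina mouse BeadChips. The labels do not say whether the 3 arrays of a group came from separate animals, so p-values measure the spread between arrays, which may be technical. The label numbers 1 to 3 stand for 3 BeadChips, and a group sat at the same position on every chip, so position and group cannot be told apart.

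DP thymocytes carry both coreceptors, CD4 and CD8, and rearrange the T cell receptor alpha chain gene with the RAG recombinase. A DP cell whose receptor binds self peptide on MHC with suitable strength is positively selected: it ends recombination, gains survival and migration receptors and keeps 1 coreceptor. CD4 SP cells are those that keep CD4, the coreceptor for MHC class II, and they mature in the thymic medulla before they leave for the blood. DP cells are also the descendants of a burst of division, and the sorted DP gate can hold cells still in cycle. In bulk RNA from a sorted population, fewer cells of a type and less RNA per cell cannot be told apart.

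Values are log2 intensities after background correction and quantile normalization, with an offset of 16. A difference of 1 is a doubling on that scale, and it understates the change of dim probes. Values after ± are standard errors of a difference. A gene was called where its limma p-value, adjusted over 26676 tested probes, was under 0.05, and it was represented by its brightest tested probe. A probe was counted as detected on an array where its deposited detection p-value was under 0.05. For a probe below detection on all 3 arrays of a population, the change is given as a bound, "at least N-fold". The array detected 42.6 to 45.8% of its 46237 probes on the 6 arrays, and arrays of a group correlated at 0.863 to 0.897 (DP) and 0.869 to 0.897 (CD4 SP), against 0.785 to 0.84 between the populations.

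Between DP and CD4 SP, 822 of 12975 genes were called, 6.34% of those tested. Of these, 427 were higher in CD4 SP and 395 lower. The median difference was 1.61 among the higher and -1.52 among the lower genes, and 0.07 over all genes tested. Among called genes, 371 rose and 344 fell by more than 1 on the log2 scale, and 39 rose and 18 fell by more than 3. The values of the populations did not overlap for 819 of the 822, and for 3100 of all 12975 genes (23.9%). Of the genes called higher, 67 were detected on no DP array, and of those called lower, 69 were detected on no CD4 SP array. At the level of probes, 1608 were called (6.03%; 730 higher, 2.74%, and 878 lower, 3.29%). With only the 6 arrays in the fit 526 genes were called, and without background correction 1276.

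**Figure D1:**
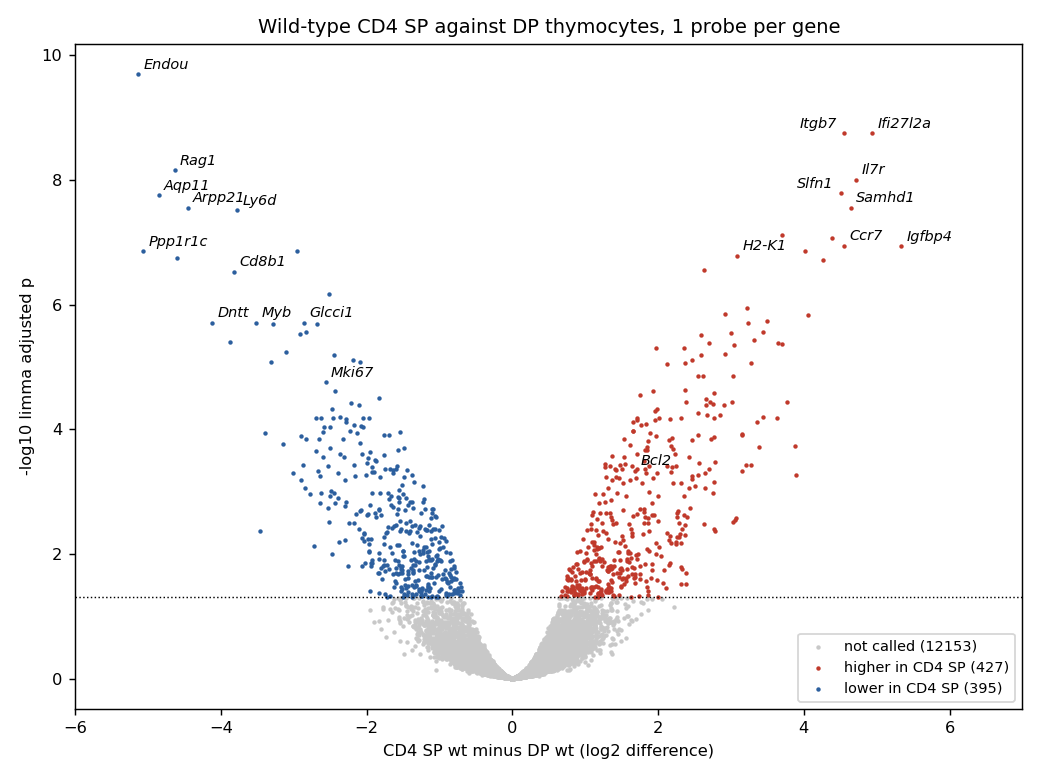
Each point is a gene (its brightest tested probe), with the log2 difference between CD4 SP wt and DP wt on the horizontal axis and -log10 of the limma adjusted p on the vertical axis; the dotted line is an adjusted p of 0.05. The 427 genes called higher and the 395 called lower lie on both sides in similar numbers, with Endou at the lower and Igfbp4 at the upper extreme.

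The coreceptor genes were read first as a check of the sort, and the probes of the CD8 beta chain disagreed. The Cd4 probe used for the gene read 8.61, 8.39 and 8.37 in DP and 7.27, 7.78 and 8.02 in CD4 SP, and the other read 8.45, 8.86 and 8.96 in DP and 8.64, 8.40 and 8.31 in CD4 SP. Neither was called between DP and CD4 SP, and both were detected on all 6 arrays. Cd8b1, the CD8 beta chain, had 3 tested probes: the brightest read 11.65, 11.75 and 11.67 in DP and 7.86, 8.69 and 7.05 in CD4 SP (log2 difference -3.82 ± 0.30, limma adjusted p = 3e-07), a second fell by 5.08, and the remaining probe was higher in CD4 SP (log2 difference 2.24 ± 0.41, limma adjusted p = 0.00222). Cd8b1 was the only called gene with another probe called in the opposite direction, among 396 with other tested probes. The Cd8a probe was dim, read 6.51, 6.08 and 4.59 in DP and 4.46, 5.86 and 4.28 in CD4 SP, and was not called. Genes of the T cell receptor complex were not called: Cd3e read 10.51, 10.58 and 10.49 in DP and 10.39, 10.44 and 10.66 in CD4 SP, and the differences of Cd3d, Cd3g and Cd247 were 0.22, 0.32 and 0.22.

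The recombinase genes and part of the machinery around them were lower in CD4 SP. Of 13 measured genes of receptor gene recombination, 5 were called lower and 0 higher (median -0.22, against 0.07 over all genes). Rag1, which with Rag2 cuts DNA at the receptor gene segments, read 11.99, 11.84 and 11.80 in DP and 7.39, 7.29 and 7.05 in CD4 SP (log2 difference -4.64 ± 0.26, limma adjusted p = 7.06e-09). All 3 CD4 SP arrays still detected Rag1, at levels far below every DP array. Rag2 read 7.11, 7.40 and 6.09 in DP and 4.35, 4.32 and 4.19 in CD4 SP and was detected on no CD4 SP array (at least 3.93-fold, limma adjusted p = 9.16e-05). Dntt, the polymerase that adds untemplated nucleotides at the joints, read 9.78, 9.75 and 9.67 in DP and 5.72, 6.63 and 4.50 in CD4 SP (log2 difference -4.12 ± 0.38, limma adjusted p = 1.95e-06); its CD4 SP values spread widely and all lay below DP. Xrcc6, the Ku70 subunit of the end-joining complex, fell by 3.29, and Hmgb2, a DNA-bending cofactor of the recombinase, fell by 1.47. Lig4, an end-joining ligase, was not called (-0.22), and Xrcc5, the Ku80 partner of Xrcc6, and Prkdc were detected on no DP array, so their probes could show no fall. Ptcra, the surrogate alpha chain of the pre-T cell receptor, was not called either (-0.17).

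The promoters of genes from 3 of the groups described here are shown, since these genes moved among the most and hold matches to motifs of factors that act in thymocytes. Each runs from 250 bases before to 50 after the transcription start (RefSeq, GRCm38.p6), 5′ to 3′ on the gene's strand. Capitals mark E-boxes (CAGCTG, or CACCTG on either strand) in Rag1 at chr2:101649483-101649782, minus strand, CCACCC on either strand, a motif of KLF and SP factors, in Itgb7 at chr15:102231886-102232185, minus strand, and GGGNNTTCC, an NF-kB motif, in H2-K1 at chr17:34000298-34000597, minus strand, where 2 starts are listed.
Rag1: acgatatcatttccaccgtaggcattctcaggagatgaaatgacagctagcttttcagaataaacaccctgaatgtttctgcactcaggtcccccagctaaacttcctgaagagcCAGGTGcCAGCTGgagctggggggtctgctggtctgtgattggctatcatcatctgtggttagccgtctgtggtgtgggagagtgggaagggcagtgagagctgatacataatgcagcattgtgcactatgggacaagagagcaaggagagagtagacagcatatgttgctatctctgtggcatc
Itgb7: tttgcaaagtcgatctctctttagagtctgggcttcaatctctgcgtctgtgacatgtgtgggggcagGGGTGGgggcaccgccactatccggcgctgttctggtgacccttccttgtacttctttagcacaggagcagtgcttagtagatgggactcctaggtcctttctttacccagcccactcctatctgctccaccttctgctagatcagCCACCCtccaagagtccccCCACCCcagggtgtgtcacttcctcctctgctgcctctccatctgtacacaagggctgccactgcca
H2-K1: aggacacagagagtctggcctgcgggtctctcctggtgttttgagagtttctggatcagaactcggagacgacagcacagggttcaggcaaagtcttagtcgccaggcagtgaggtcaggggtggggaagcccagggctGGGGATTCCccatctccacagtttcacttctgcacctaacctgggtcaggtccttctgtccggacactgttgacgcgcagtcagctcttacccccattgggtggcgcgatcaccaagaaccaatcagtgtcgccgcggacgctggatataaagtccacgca

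In these windows Rag1 holds 1 CAGCTG and 1 CACCTG, Itgb7 holds 3 CCACCC, and H2-K1 holds 1 GGGNNTTCC. Promoters of Rag2, Dntt and Il7r were searched as well and are not shown. Rag2 and Dntt held 0 CAGCTG and 0 CACCTG, and Il7r held 0 CCACCC. The letters alone are common: of 10167 tested genes with a listed promoter, 15.3% hold CAGCTG, 18.3% CACCTG, 35.6% CCACCC and 6.8% GGGNNTTCC. Among the 100 genes with the largest rise, 53% hold CCACCC and 22% CAGCTG, and among the 100 with the largest fall 41% and 11%. CACCTG was held by 19% of the rises and 13% of the falls, and GGGNNTTCC by 9% and 5%. CCAAT was held by 35% of the rises, 51% of the falls and 38.5% of all, and CCGCCC by 49, 64 and 57.3%. Also counted, on both strands and without regard to overlaps between motifs, were TGACTCA (AP-1), TGACGT (cAMP response element), ACTTCC (ETS), TGTGGT (RUNX), CTTTGA (TCF and LEF), GTGGGCG (EGR) and TATAAA, each in 4.1 to 27.1% of all promoters. These shares are a description without a test, and a match is not a binding site.

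Most listed genes of the DP stage were lower in CD4 SP. Of 19 measured, 12 were called lower and 0 higher (median -2.09), against 3.04% lower over all genes. The list was chosen with earlier results of these data known, so this count is a description and not independent support. Endou, an endoribonuclease, read 10.33, 10.28 and 10.07 in DP and 4.87, 5.16 and 5.24 in CD4 SP (log2 difference -5.14 ± 0.21, limma adjusted p = 2.02e-10), the largest fall of all genes called. Aqp11, an intracellular aquaporin, read 10.06, 10.38 and 10.01 in DP and 4.75, 5.71 and 5.42 in CD4 SP (log2 difference -4.85 ± 0.30, limma adjusted p = 1.77e-08), and Ly6d, a GPI-anchored surface protein of early lymphoid cells, read 9.14, 9.67 and 9.61 in DP and 5.86, 5.66 and 5.58 in CD4 SP (log2 difference -3.77 ± 0.25, limma adjusted p = 3.1e-08). In each of these genes the DP arrays lay close together and far above every CD4 SP array. Arpp21, an RNA-binding phosphoprotein, was detected on all DP arrays and on no CD4 SP array, with 8.94, 8.96 and 8.76 in DP and 4.57, 4.43 and 4.30 in CD4 SP (at least 15.9-fold, limma adjusted p = 2.8e-08). Themis, a regulator of receptor signal strength in selection, read 8.91, 8.64 and 8.51 in DP and 7.28, 6.86 and 4.79 in CD4 SP (log2 difference -2.38 ± 0.50, limma adjusted p = 0.00635), and it was not called when only the 6 arrays entered the fit. Plxnd1 and Bcl6 were also called lower, by 2.50 and 2.29, as was Cd24a, detected on no CD4 SP array (at least 1.8-fold). Outside this group, large falls were those of Ppp1r1c, a protein phosphatase inhibitor (10.57, 10.61 and 10.29 in DP and 6.23, 5.64 and 4.41 in CD4 SP), and Rapgef3, a cAMP-activated exchange factor for RAP GTPases (10.85, 10.78 and 10.62 in DP and 6.08, 7.03 and 5.33 in CD4 SP).

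**Figure D2:**
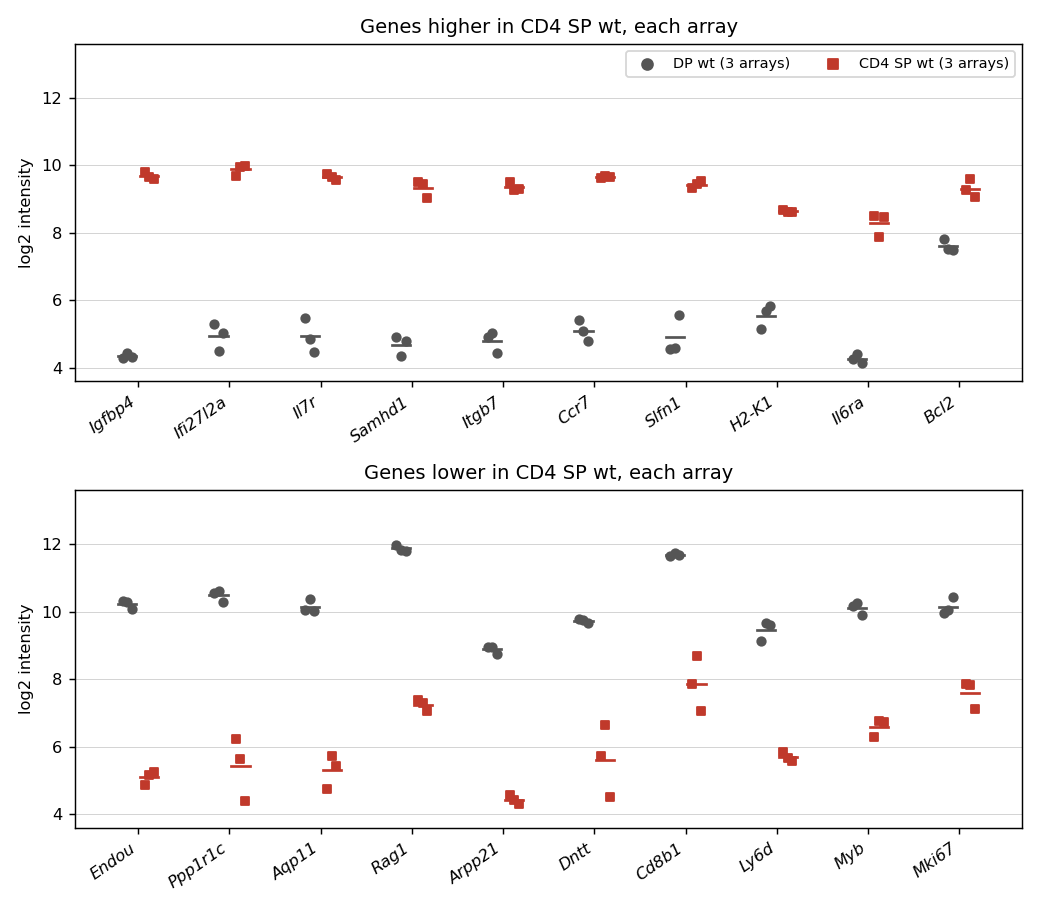
Log2 intensity of 10 genes called higher (top) and 10 called lower (bottom) on every array: grey circles are the 3 DP wt arrays, red squares the 3 CD4 SP wt arrays, and short bars the means. In all 20 genes the 3 values of one population lie on one side of the other's 3, and most higher genes start from DP values under 6.

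Of 21 measured genes of positive selection signals, 10 were called higher in CD4 SP, 1 lower and 10 did not pass (median 0.94). Egr2 and Egr3, transcription factors induced by the receptor through ERK, read 8.15, 8.14 and 7.75 in DP and 10.02, 9.71 and 9.79 in CD4 SP (log2 difference 1.82 ± 0.28, limma adjusted p = 0.000437) and 4.86, 4.37 and 4.45 in DP and 7.44, 7.42 and 7.37 in CD4 SP (at least 5.93-fold, limma adjusted p = 5.95e-05). Itm2a, a membrane protein induced by selection, read 6.97, 7.23 and 6.61 in DP and 10.01, 10.17 and 10.08 in CD4 SP (log2 difference 3.15 ± 0.42, limma adjusted p = 0.00012). No DP array detected Egr3, while Egr2 and Itm2a were on in DP and higher in CD4 SP. Cd53, a tetraspanin, rose by 3.32, Cd2, an adhesion receptor, by 1.70 and Icos, a costimulatory receptor, by 1.84. Slamf6, a homotypic receptor of DP cells, was the member called lower, with 9.53, 9.55 and 9.67 in DP and 7.12, 5.91 and 7.21 in CD4 SP (log2 difference -2.83 ± 0.39, limma adjusted p = 0.000143). Cd69, the surface marker used to stage selection, was not called on its brightest probe (7.33, 7.05 and 7.56 in DP and 8.48, 8.02 and 8.26 in CD4 SP, limma adjusted p = 0.0573). The other tested Cd69 probe was called higher in CD4 SP. Of the 7 ERK feedback genes, 2 phosphatases were called, Dusp1 (1.45) and Dusp6 (1.21), both higher.

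Within T cell receptor signalling, 25 of 31 measured genes were not called. The share called was 19.4%, against 6.34% of all genes. The members that passed were 3 higher and 3 lower. Those higher were Cblb, a ubiquitin ligase (5.61, 4.47 and 4.34 in DP and 7.10, 6.89 and 7.28 in CD4 SP), Ubash3b, a phosphatase (5.15, 4.70 and 4.42 in DP and 6.96, 6.32 and 6.74 in CD4 SP, at least 3.34-fold, limma adjusted p = 0.00239), and Ptpn6, the phosphatase SHP-1 (1.04). Those lower were Themis, described above, Nfatc3, a transcription factor of calcium signalling (log2 difference -0.70 ± 0.19, limma adjusted p = 0.0346), and Cbl, the ligase related to Cblb, with 8.90, 9.30 and 8.86 in DP and 7.56, 7.48 and 7.03 in CD4 SP (log2 difference -1.66 ± 0.30, limma adjusted p = 0.00167). The count of members called higher was 5 in place of 3 without DP replicate 1. Nfatc3 was not called when any of the 6 arrays was left out, or with only the 6 arrays in the fit. The count of members called lower was 2 with 1 of the 6 arrays left out, and 1 with only the 6 arrays in the fit.

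Receptors for survival, migration and maturation held some of the largest rises. Of the 24 measured genes of SP maturation and egress, 10 were called higher and 2 lower (median 0.72). Il7r, the receptor chain for the survival cytokine IL-7, read 5.49, 4.87 and 4.48 in DP and 9.76, 9.65 and 9.58 in CD4 SP (log2 difference 4.72 ± 0.27, limma adjusted p = 9.87e-09). Ccr7, the chemokine receptor that guides selected cells into the medulla, read 5.42, 5.10 and 4.81 in DP and 9.64, 9.69 and 9.65 in CD4 SP (log2 difference 4.55 ± 0.33, limma adjusted p = 1.14e-07), and Itgb7, an integrin beta chain of gut homing, read 4.92, 5.04 and 4.45 in DP and 9.50, 9.27 and 9.31 in CD4 SP (log2 difference 4.55 ± 0.23, limma adjusted p = 1.78e-09). The CD4 SP arrays lay close together for each of these genes, and the DP arrays lay near the detection limit, with 1 or 2 of 3 detecting the probe. Ms4a4b, a membrane protein of maturing T cells, rose by 4.05, and Vim, an intermediate filament, by 2.66. Klf2, the factor that directs thymic exit, was detected on no DP array and was higher by at least 2.3-fold (limma adjusted p = 0.000505); it was picked after its values were seen. Klf3 and Ifngr1, a chain of the interferon gamma receptor, were the members called lower, Ifngr1 with 10.34, 10.03 and 9.79 in DP and 7.37, 7.85 and 7.60 in CD4 SP (log2 difference -2.45 ± 0.25, limma adjusted p = 6.46e-06).

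Among 23 chemokine receptors and adhesion molecules, 5 were called higher and 1 lower (26.1% called, against 6.34% of all genes). Ccr8 was detected on no DP array and on all CD4 SP arrays (4.26, 4.25 and 4.34 in DP and 6.50, 6.81 and 6.62 in CD4 SP; at least 3.48-fold, limma adjusted p = 4.95e-06). Cxcr4, which holds cortical thymocytes near its ligand CXCL12, was the gene called lower (10.08, 10.05 and 10.01 in DP and 7.95, 7.90 and 7.64 in CD4 SP; log2 difference -2.21 ± 0.26, limma adjusted p = 3.81e-05). Ccr9, the other receptor of cortical DP cells, read 7.10, 6.96 and 6.50 in DP and 5.20, 5.24 and 6.07 in CD4 SP and missed the threshold (limma adjusted p = 0.0501).

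Of 20 cytokine receptor genes, 6 were called higher and 1 lower. Il6ra, the IL-6 receptor, went from undetected on every DP array to 8.52, 7.87 and 8.48 (at least 10.9-fold, limma adjusted p = 1.38e-07). Il18r1 likewise was undetected in DP and read 8.45, 6.82 and 6.94 in CD4 SP (at least 5.91-fold, limma adjusted p = 0.00038). Tgfbr2 rose by 2.32 and Il27ra by 2.20. Of the shared chains, Il2rb was called higher (log2 difference 1.31 ± 0.32, limma adjusted p = 0.0182), while Il2rg (-0.38) and Il4ra, the IL-4 receptor chain (-0.10), were not called. Il2rb lost its call with only the 9 wt arrays or only the 6 arrays in the fit. It also lost it without DP replicate 2 or CD4 SP replicate 1 or 3. Of 15 JAK-STAT and SOCS genes 0 were called, near the 6.34% of all genes.

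The BCL2 family split by member. Bcl2, the survival factor of SP thymocytes, read 7.84, 7.54 and 7.48 in DP and 9.28, 9.59 and 9.06 in CD4 SP (log2 difference 1.69 ± 0.26, limma adjusted p = 0.000466). Bcl2l1, which encodes BCL-XL, the survival factor of DP cells, read 8.93, 9.01 and 9.17 in DP and 7.52, 7.60 and 7.41 in CD4 SP (log2 difference -1.53 ± 0.30, limma adjusted p = 0.00406). All 3 arrays of each population lay on opposite sides for both genes. Bcl2a1b and Bcl2a1d were higher by 2.91 and 3.22, but they are near-identical copies and their probes may not tell them apart. The 10 other measured members were not called, among them Mcl1 (0.18) and Bcl2l11, the killer BIM (0.67).

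TNF receptors and ligands were called higher in 7 of 16 cases and lower in 1 (median 1.05). Tnfrsf4, the costimulatory receptor OX40, read 4.31, 4.54 and 4.79 in DP and 7.33, 7.62 and 7.44 in CD4 SP (at least 6.16-fold, limma adjusted p = 1.42e-06), and Cd40lg, the ligand through which CD4 T cells help B cells, read 5.10, 4.40 and 4.34 in DP and 6.79, 6.95 and 6.14 in CD4 SP (at least 3.26-fold, limma adjusted p = 6.71e-05). No DP array detected either gene and all CD4 SP arrays did. Fas, a death receptor, was the member called lower (7.90, 7.28 and 8.11 in DP and 5.31, 5.71 and 6.03 in CD4 SP; log2 difference -2.08 ± 0.38, limma adjusted p = 0.00197). The count of members called higher was 4 to 6 with 1 of the 6 arrays left out. It was 4 without CD4 SP replicate 1 and 4 without CD4 SP replicate 3.

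Transcription factors changed in both directions, with 5 of 22 called higher and 3 lower. Myb, needed for DP survival, read 10.16, 10.27 and 9.89 in DP and 6.29, 6.76 and 6.72 in CD4 SP (log2 difference -3.52 ± 0.32, limma adjusted p = 1.95e-06), and Ets2 fell by 2.09. Bach2, a repressor of effector genes, read 5.80, 6.87 and 4.61 in DP and 9.54, 9.57 and 9.79 in CD4 SP (log2 difference 3.88 ± 0.54, limma adjusted p = 0.000186), Foxo1, an activator of Il7r, rose by 2.16, Lef1 by 1.09, and Irf4 rose at least 4.59-fold. The DP values of Bach2 spread widely and the CD4 SP values did not. Id2, an inhibitor of E proteins, read 6.72, 4.69 and 6.57 in DP and 9.63, 9.70 and 10.31 in CD4 SP (log2 difference 3.89 ± 0.61, limma adjusted p = 0.000544), and Tcf12, the E protein HEB, fell by 1.70. Zbtb7b, the factor that sets CD4 identity, read 6.70, 6.36 and 5.42 in DP and 6.97, 6.29 and 6.90 in CD4 SP and was not called, nor were Runx1 (-0.38) and Bcl11b (-0.52). Of the 11 measured CD4 lineage genes, 3 were called higher and 1, Myb, lower (36.4% called, against 6.34% of all genes). The count called higher was 1 with only the 6 arrays in the fit, and 1 with the mean over the probes of a gene. The WNT and TCF group had 2 of 21 called (9.52%), Lef1 and the corepressor Tle4 (1.75), and Notch receptors and targets had 0 of 5. In groups of this size both counts lie near the share over all genes, 6.34%.

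Genes of the cell cycle were lower in CD4 SP. Of 25 mitosis genes, all 25 differed below 0 and 16 were called lower (median -1.50). Of 30 genes of DNA replication and S phase, 29 were below 0 and 10 called lower (median -0.88). Mki67, the proliferation antigen Ki-67, read 9.95, 10.06 and 10.45 in DP and 7.85, 7.82 and 7.11 in CD4 SP (log2 difference -2.56 ± 0.29, limma adjusted p = 1.75e-05), and Top2a, the topoisomerase of mitotic chromosomes, read 7.92, 7.94 and 8.46 in DP and 6.01, 5.81 and 5.43 in CD4 SP (log2 difference -2.36 ± 0.30, limma adjusted p = 6.46e-05). Nusap1, a spindle protein, was detected on no CD4 SP array (6.87, 7.55 and 8.23 in DP and 4.51, 4.75 and 4.38 in CD4 SP; at least 6.32-fold, limma adjusted p = 0.000506). Rrm2, the ribonucleotide reductase subunit of S phase, fell by 1.54, and Uhrf1, which couples DNA methylation to replication, read 9.75, 9.87 and 10.26 in DP and 7.54, 8.07 and 8.10 in CD4 SP (log2 difference -2.05 ± 0.27, limma adjusted p = 9.13e-05). Mitosis genes thus lay lower on every CD4 SP array than on every DP array when averaged, at 6.04 to 6.33 against 7.53 to 8.12, and S phase genes at 6.48 to 6.68 against 7.38 to 7.64. The D cyclins changed in opposite directions: Ccnd2 read 5.61, 4.46 and 6.29 in DP and 9.73, 9.65 and 9.78 in CD4 SP (log2 difference 4.27 ± 0.33, limma adjusted p = 1.96e-07) and Ccnd3, needed for the expansion of immature thymocytes, fell by 0.95. Ezh2, the PRC2 methyltransferase, fell by 1.55 and Hdac7, a deacetylase abundant in DP cells, by 1.58; Eed and Suz12, the partners of Ezh2, differed by 0.27 and 0.01 and were not called.

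Interferon-stimulated genes had the highest share of calls upward among the lists. Of 28 measured, 17 were called higher and 0 lower (median 1.30). The count called higher was 11 to 13 with 1 of the 6 arrays left out, and 11 without CD4 SP replicate 3. The mean level of the list was 5.84 to 6.00 on DP arrays and 7.40 to 7.43 on CD4 SP arrays. Trim30a, an interferon-induced inhibitor of NF-kB signalling, read 4.29, 5.29 and 4.25 in DP and 7.84, 8.10 and 8.20 in CD4 SP (log2 difference 3.44 ± 0.33, limma adjusted p = 2.79e-06), Isg15, a ubiquitin-like modifier, read 7.22, 6.87 and 6.85 in DP and 8.87, 8.74 and 8.97 in CD4 SP (log2 difference 1.88 ± 0.25, limma adjusted p = 0.000113), and Rsad2, the antiviral protein viperin, read 4.33, 4.62 and 4.27 in DP and 7.29, 7.49 and 6.46 in CD4 SP (at least 4.73-fold, limma adjusted p = 5.97e-05). The DP arrays detected Isg15 on all 3 arrays and Rsad2 on none. Ifit3 rose by 2.76, Ifi47 by 2.55 and Ddx58, the RNA sensor RIG-I, by 2.55. Mx1 (-0.11), Ly6e (-0.59) and Stat2 (0.23) did not pass. Outside the list, Ifi27l2a (5.29, 4.51 and 5.03 in DP and 9.70, 9.96 and 9.99 in CD4 SP; log2 difference 4.94 ± 0.25, limma adjusted p = 1.78e-09) and Samhd1, a nucleotide hydrolase that restricts viruses (4.92, 4.34 and 4.80 in DP and 9.51, 9.45 and 9.03 in CD4 SP; at least 22.2-fold, limma adjusted p = 2.8e-08), were among the 5 largest rises by fitted difference.

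Of 18 measured genes of the MHC and antigen presentation list, 10 were called higher in CD4 SP and 0 lower (median 0.91), and 6 with median scaling or with only the 6 arrays in the fit. H2-K1, a class I heavy chain, read 5.14, 5.69 and 5.83 in DP and 8.68, 8.62 and 8.62 in CD4 SP (log2 difference 3.09 ± 0.23, limma adjusted p = 1.64e-07), H2-D1 read 7.79, 7.94 and 8.01 in DP and 10.05, 10.09 and 9.96 in CD4 SP (log2 difference 2.12 ± 0.22, limma adjusted p = 9.01e-06), and B2m, their shared light chain, read 10.02, 10.03 and 10.10 in DP and 11.35, 11.38 and 11.21 in CD4 SP (log2 difference 1.26 ± 0.19, limma adjusted p = 0.000361). The class I heavy chain genes resemble each other closely and probes may share signal among them. Nlrc5, the transactivator of class I genes, was detected on no DP array (4.48, 4.88 and 4.21 in DP and 7.94, 7.88 and 7.56 in CD4 SP; at least 7.63-fold, limma adjusted p = 8.76e-06), while Ciita, its class II counterpart, was not called (0.38). The peptide transporter genes Tap1 (detected on no DP array) and Tap2 (-0.23) did not pass either, whereas the immunoproteasome subunit Psmb9 rose by 1.11.

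**Figure D3:**
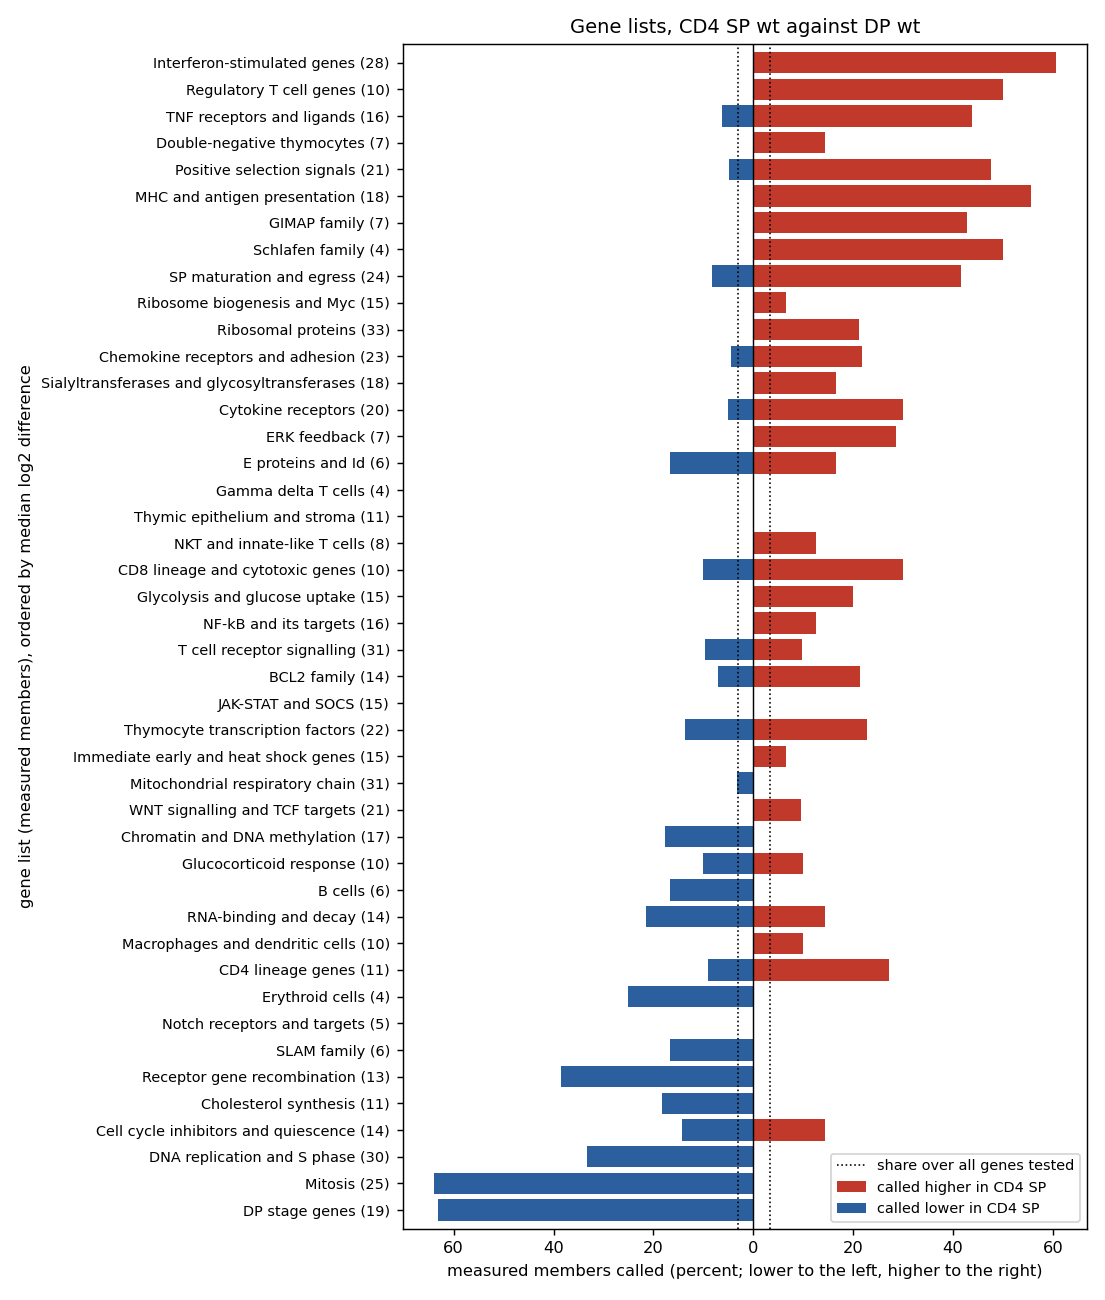
Share of the measured members of each gene list called higher (red, to the right) or lower (blue, to the left) in CD4 SP wt against DP wt, with the number measured after each name and lists ordered by their median log2 difference. Dotted lines mark the shares over all 12975 genes (3.29% higher, 3.04% lower). Mitosis and DP stage genes reach 64% and 63.2% lower, and interferon-stimulated genes 60.7% higher.

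Several smaller families held called genes. Of 4 Schlafen genes, regulators of T cell quiescence, 2 were called higher, with Slfn1 at 4.57, 4.61 and 5.58 in DP and 9.33, 9.44 and 9.53 in CD4 SP (log2 difference 4.51 ± 0.27, limma adjusted p = 1.64e-08). Of 7 GIMAP GTPases, which support T cell survival, 3 were called higher and all 7 lay above 0; Gimap4 rose at least 4.23-fold, Gimap7 by 2.37, and Gimap6 by 1.20, which was not called without DP replicate 1 or 3 or any of the CD4 SP arrays. Among 18 sialyl- and glycosyltransferases 3 were higher, including St6gal1 (9.01, 8.70 and 8.37 in DP and 10.61, 10.70 and 10.56 in CD4 SP; log2 difference 1.93 ± 0.22, limma adjusted p = 2.44e-05) and St3gal1 (2.35), which cap surface glycans with sialic acid. Of 15 glycolysis genes, 3 were higher (20%), with Aldoa at 1.28 and Pkm at 1.08. Of 31 respiratory chain genes 1 was called (3.23%), against 6.34% of all genes. Igfbp4, a binding protein for insulin-like growth factors, was the largest rise by fitted difference (4.29, 4.44 and 4.32 in DP and 9.82, 9.65 and 9.59 in CD4 SP; at least 28.7-fold, limma adjusted p = 1.16e-07).

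Markers of other cells were read for the same arrays. Of 10 measured regulatory T cell genes, 5 were called higher, Tnfrsf4, Tnfrsf18, Tnfrsf9 (not called without DP replicate 2 or 3 or any of the CD4 SP arrays), Itgae (not called as a mean over its probes) and Capg, and the list averaged 5.46 to 5.71 in DP and 6.56 to 6.88 in CD4 SP. Foxp3, the defining factor of regulatory T cells, read 7.50, 7.57 and 7.02 in DP and 7.67, 7.89 and 8.07 in CD4 SP and was not called (limma adjusted p = 0.293). The part of regulatory T cells in the TNF receptor result was not tested. Of 10 macrophage and dendritic cell genes only Ctss, a lysosomal protease, was called higher, at means of 5.81 to 6.05 in DP and 6.04 to 6.21 in CD4 SP, and Cd74 differed by 0.03. B cell genes had 1 of 6 called, Ighm, which was lower (7.63, 8.13 and 8.21 in DP and 6.29, 5.74 and 6.49 in CD4 SP), while erythroid genes had 1 of 4 called lower and thymic epithelium and stroma 0 of 11. NKT and innate-like genes had 1 of 8 called, gamma delta T cell genes 0 of 4, and double-negative thymocyte genes 1 of 7, which was Il7r. Over all genes tested 6.34% were called, and 0 or 1 call in lists of this size lies near that share. Whether such cells were present in the sorted populations was not tested.

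Whether the change was particular to CD4 SP cells was tested by CD4 SP against CD8 SP, in which the DP arrays cancel. It called 467 of 12975 genes (3.6%; 193 higher, 1.49%, and 274 lower, 2.11%; 912 probes, 3.42%), and 244 to 291 without CD4 SP replicate 1 or 2 or CD8 SP replicate 1 or 3. Of the 427 genes higher in CD4 SP than in DP, 83 were also higher in CD4 SP than in CD8 SP and 2 were lower. Of the 395 lower genes, 147 were also lower than in CD8 SP and 2 were higher. These comparisons share the CD4 SP arrays, so the counts are a description. CD8 SP against DP called 986 genes (7.6%; 498 higher, 3.84%, and 488 lower, 3.76%). Endou averaged 10.23 (DP), 5.09 (CD4 SP) and 9.34 (CD8 SP) (CD4 SP minus CD8 SP -4.25 ± 0.21, limma adjusted p = 9.12e-09), and Aqp11 10.15, 5.30 and 8.47 (-3.17 ± 0.30, limma adjusted p = 1.05e-05). Rapgef3, Ly6d, Nt5dc2 and Aurka were likewise lower in CD4 SP than in CD8 SP. In Endou, Aqp11, Rapgef3 and Ly6d the CD8 SP mean lay between those of CD4 SP and DP. By the same test, 14 of 25 mitosis and 19 of 30 S phase genes were lower in CD4 SP than in CD8 SP. The share of cells in cycle in each gate was not tested.

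Other genes were higher in CD4 SP than in both DP and CD8 SP. Myo6, an unconventional myosin, averaged 4.75 (DP), 9.14 (CD4 SP) and 4.36 (CD8 SP). No CD8 SP array detected it (at least 18.8-fold higher in CD4 SP than in CD8 SP, limma adjusted p = 1.73e-07). Itm2a (6.94, 10.08 and 6.67) and Ptgir, the prostacyclin receptor (4.94, 7.67 and 4.50), were likewise highest in CD4 SP, and no CD8 SP array detected Ptgir. Il6ra, Cd40lg, Tnfrsf4, Ccr8, Il18r1 and Irf4 also passed against CD8 SP. Il6ra, detected on 2 CD8 SP arrays, differed by 2.97. The other genes were detected on no CD8 SP array and were higher in CD4 SP by at least 3.29-fold (Cd40lg), 5.87-fold (Tnfrsf4), 3.32-fold (Ccr8), 5.64-fold (Il18r1) and 4.88-fold (Irf4). By contrast Itgb7 (CD4 SP minus CD8 SP 0.31 ± 0.23, limma adjusted p = 0.591), Nlrc5 (0.32 ± 0.34) and H2-K1 (0.48 ± 0.23) were not called between the SP populations. For the MHC and antigen presentation list 0 of 18 genes, and for interferon-stimulated genes 1 of 28, differed between them. Itgae and Xcl1, genes of the CD8 lineage list, were higher in CD4 SP than in DP and lower in CD4 SP than in CD8 SP (by 2.81 and 2.09 less on the log2 scale).

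**Figure D4:**
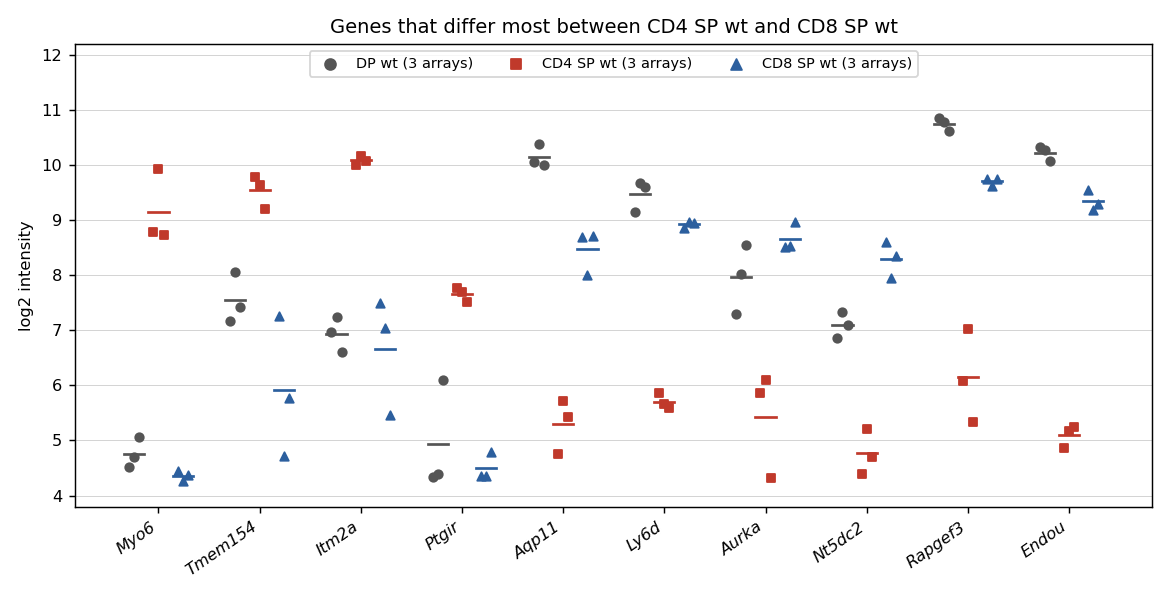
Log2 intensity on every wt array of the 10 genes with the largest difference between CD4 SP wt and CD8 SP wt among genes called in both comparisons: grey circles DP, red squares CD4 SP, blue triangles CD8 SP, bars the means. In Myo6, Tmem154, Itm2a and Ptgir the CD4 SP arrays are highest, and in the 6 others they are lowest. The rise of Tmem154 from DP was not called when any of the 6 arrays of DP and CD4 SP was left out.

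The same transition was measured in the DP cKO and CD4 SP cKO arrays, which share no array with the wild type. There 681 genes were called (5.25%; 331 higher, 2.55%, and 350 lower, 2.7%; 1261 probes, 4.73%). Of these, 513 were called in the same direction in wt and 0 in the opposite one, 62.4% of the wt list and 75.3% of the cKO list. The difference had the same sign in both genotypes for 807 of the 822 genes, 98.2%, against 65.2% of all genes. Across the called genes the differences of wt and cKO correlated at r = 0.948, and across all genes at 0.686, as a description over genes, which are not independent. In cKO Rag1 fell by 4.52. Endou was detected on no CD4 SP cKO array (at least 45.1-fold lower) and Il7r on no DP cKO array (at least 25.1-fold higher). The median difference in cKO was 1.29 for genes higher in wt and -1.25 for those lower. The test of the difference between genotypes called 0 probes in limma, with 1018 at an unadjusted p under 0.05, and 1 probe without CD4 SP replicate 3. Some genes called in wt missed the threshold in cKO: Itgae was higher by at least 3.76-fold in wt and was detected on no DP cKO or CD4 SP cKO array, a gap that was not called (limma adjusted p = 0.99).

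**Figure D5:**
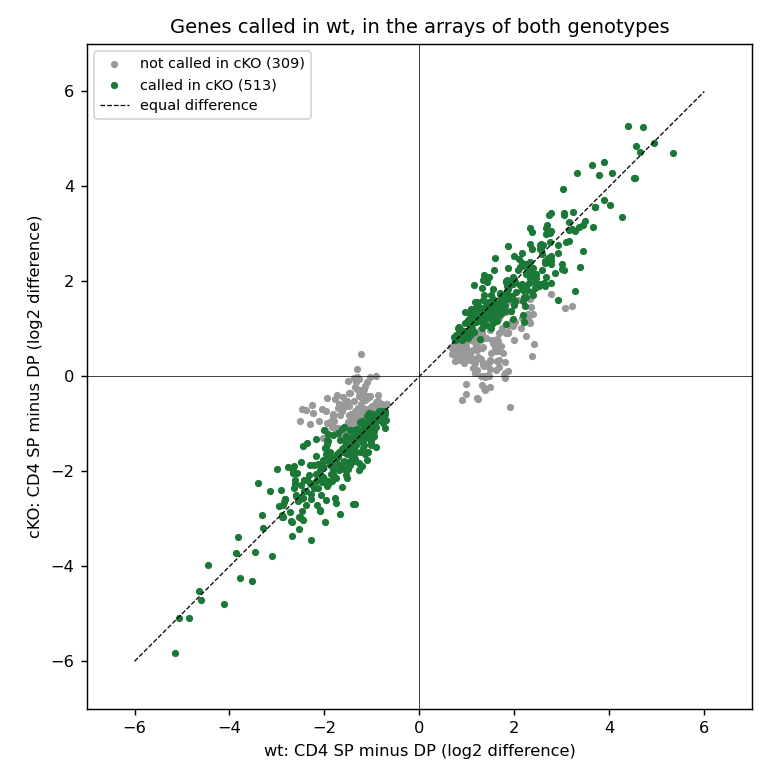
Each of the 822 genes called in wt is a point, with its CD4 SP minus DP log2 difference in wt on the horizontal and in cKO on the vertical axis; green points are the 513 called in cKO as well, grey points the others, and the dashed line marks equal differences. The points follow the line, and 807 of 822 lie in the same direction in both genotypes.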

How the data were processed

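Sorted thymocyte RNA was hybridized to Illumina mouse BeadChips. The bead file the authors deposited holds an intensity per probe and array, linear and without background subtraction, and, per the file headers, a detection p-value beside it; the method behind either was not stated in the labels or headers. The value table the authors deposited holds a normalized intensity of the same arrays and served only as an alternative. Detection p-values and intensities were used for neqc (background correction, quantile normalization, log2, offset 16) in limma 3.58.1 under R 4.3.3. Of 46237 probes, 26676 were tested, namely those detected (p-value under 0.05) on 3 or more of the 18 arrays. They stood for 12975 genes, named from the platform annotation with symbols updated through RefSeq; 35784 probes had 1 symbol and 10453 none.

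All 18 arrays entered 1 linear model with a mean per group (12 residual degrees of freedom) and moderated tests in limma. The Benjamini-Hochberg adjustment ran over every tested probe (threshold 0.05). A gene was its tested probe with the highest mean. A bound ("at least") sets the mean of the detected group against the other group's values raised to the lowest detected value of each array. Figures were drawn with matplotlib 3.10.9. With 3 arrays per group, the number of arrays limits the precision.

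The 46 gene lists and the genes to be named were chosen with earlier results of these data known. Named were the 25 largest rises and falls among called genes without overlap, up to 6 called members of each list by p with defining genes that did not pass, all probes of Cd4, Cd8a and Cd8b1, and the 10 genes with the largest difference from CD8 SP among genes called in both comparisons. Names given outside this rule, such as Klf2, Klf3, Cd24a, Plxnd1, Bcl6 and members that were not called, were chosen after their values were seen. No gene list was tested as a set. DP wt and CD4 SP wt arrays of the same number deviated together at correlations of 0.0673, 0.0552 and 0.191 for numbers 1 to 3. Those of different numbers gave -0.16 to 0.11, a range that only number 3 exceeded. The main fit did not pair the samples by number, and fits with the chip as a replicate block are given below.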

Additional observations from a re-analysis of the deposited data

Results flagged for a closer look

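In 4 genes the SP populations moved away from DP in opposite directions, each by a call of its own, and the difference between CD4 SP and CD8 SP was called as well. Zfp281, a zinc finger transcription factor, read 7.53, 7.80 and 7.48 on the DP arrays, 9.34, 8.97 and 9.04 on the CD4 SP arrays and 7.08, 6.69 and 5.76 on the CD8 SP arrays (CD4 SP minus DP 1.51 ± 0.32, CD8 SP minus DP -1.09 ± 0.32, CD4 SP minus CD8 SP 2.61, limma adjusted p = 0.000136). Tspan32, a tetraspanin of blood cells, read 7.38, 7.15 and 6.84 on the DP arrays, 8.49, 8.78 and 8.51 on the CD4 SP arrays and 6.20, 6.29 and 6.35 on the CD8 SP arrays (CD4 SP minus DP 1.47 ± 0.23, CD8 SP minus DP -0.84 ± 0.23, CD4 SP minus CD8 SP 2.31, limma adjusted p = 2.1e-05). Both were highest in CD4 SP and lowest in CD8 SP, with DP between.

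Nt5dc2, of the 5'-nucleotidase domain family, read 6.86, 7.32 and 7.10 on the DP arrays, 4.40, 5.21 and 4.71 on the CD4 SP arrays and 8.61, 7.95 and 8.35 on the CD8 SP arrays (CD4 SP minus DP -2.32 ± 0.32, CD8 SP minus DP 1.21 ± 0.32, CD4 SP minus CD8 SP -3.53, limma adjusted p = 7.12e-06). Idi1, an isomerase of cholesterol synthesis, read 7.72, 7.70 and 7.77 on the DP arrays, 6.99, 6.66 and 6.61 on the CD4 SP arrays and 8.87, 8.48 and 8.82 on the CD8 SP arrays (CD4 SP minus DP -0.98 ± 0.27, CD8 SP minus DP 0.99 ± 0.27, CD4 SP minus CD8 SP -1.97, limma adjusted p = 0.000372). Both were lowest in CD4 SP and highest in CD8 SP. The fall of Idi1 from DP to CD4 SP was not called without DP replicate 1, 2 or 3 or CD4 SP replicate 2 or 3. The comparisons share arrays, and groups of 3 arrays were too small for a search of single deviating arrays.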

How the results depend on the processing

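Over 20 alternatives (fits, background, scaling, filters, offset, arrays left out), 124 of 159 named genes kept their call and sign in CD4 SP minus DP, 35 lost the call in at least 1 and 0 reversed. Genes called numbered 822, 526 (1028 probes) with only the 6 arrays in the fit, where fewer arrays estimate the spread and 496 calls were shared, and 1276 without background correction. Leaving out 1 of the 6 arrays gave 1197 to 1433 probes and 615 to 702 genes. The median over all genes stayed between 0.0168 and 0.0981.

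For CD4 SP minus CD8 SP, 912 probes and 467 genes became 1718 and 952 without background correction. They became 1655 and 929 with the authors' normalized intensities, and 1612 and 881 with trend and robust variance. Other settings lowered the count. The 193 genes higher in CD4 SP became 108 with the median raw intensity of each array as covariate, and 112 with median scaling. Median raw intensities were 164.2 to 185.6 on CD4 SP wt arrays and 194.6 to 246.2 on CD8 SP wt arrays. The cause of these shifts was not tested. Leaving out 1 array gave 493 to 866 probes and 244 to 430 genes. For CD4 SP cKO minus DP cKO, 1261 probes became 920 to 1072. The genotype difference stayed at 0 probes except for 1 without CD4 SP wt replicate 3. Leaving out arrays of CD8 SP and cKO was added after the data were seen.

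The chip as a replicate block gave 860 genes and 1666 probes as a fixed term (799 genes shared with 822) and 861 and 1672 as a random one (822 shared). Of the named genes, Cnot2 and Tmem154 lost their call with the fixed term. For CD4 SP minus CD8 SP the replicate block gave 920 probes and 466 genes (fixed), or 964 and 495 (random), and for the genotype difference 0. Ribosomal protein genes were most open to the settings: 7 of 33 were called higher, 0 with only the 6 arrays, 2 to 4 with 1 array left out and 23 with trend and robust variance. Dim probes lie near the offset, which limits how large a fall or rise can be seen.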

Other observations

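Replication-dependent histone genes, which are transcribed in S phase and sit in clusters, formed a large block among the lower genes. The set was picked by gene symbol after its values were seen and has no test. It may therefore hold histone genes that do not depend on replication. Of 52 tested histone genes, 40 were called lower in CD4 SP and 0 higher, with a median difference of -0.97. Over all genes tested, 3.04% were called lower. The called members fell by 0.69 to 2.85 on the log2 scale. In the cKO arrays 33 of the 52 were called lower, and 20 of the 52 were lower in CD4 SP than in CD8 SP. Over all genes tested, the shares called lower in these 2 comparisons were 2.7% and 2.11%. Many of these genes are near-identical copies, so their probes may share signal and the genes are not separate measurements. H2ac4, among the 25 largest falls, read 8.96, 9.02 and 9.42 in DP and 6.10, 7.10 and 5.63 in CD4 SP.

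Called genes also stood next to each other on chromosomes outside the histone clusters. Counting runs of at least 3 neighbouring tested genes called in the same direction gave 13 runs, of which 7 were histone genes on chromosomes 13 and 3. The 6 others were short. Neighbours were taken in order among the tested genes, without a limit on the distance between them. The number of runs to be expected without any clustering was not worked out, so the count is a description. On chromosome 4, Tctex1d1, Wdr78 and Mier1 were all lower and all among the 25 largest falls. Tctex1d1 was detected on no CD4 SP array (at least 5.03-fold lower), and Wdr78 and Mier1 fell by 3.46 and 2.90. On chromosome 11, Dgke and Gm525 fell by 2.70 and 2.69, and Dgkeos, the opposite-strand neighbour of Dgke, was detected on no CD4 SP array (at least 9.2-fold lower). On chromosome 9, Tcf12, Zfp280d and Mns1 fell by 1.70, 1.96 and 3.10. Among runs of higher genes were Ubac2, Gpr18 and Gpr183 on chromosome 14 (by 1.24, 3.02 and, for Gpr183, detected on no DP array, at least 4-fold). Gimap4, Gimap6 and Gimap7 formed a run on chromosome 6, of which Gimap6 was not called with several single arrays left out. Another run held Tnfrsf4 and Tnfrsf18 with C1qtnf12 and B3galt6 on chromosome 4. C1qtnf12 passed narrowly (limma adjusted p = 0.0473) and overlapped, with 5.70, 4.38 and 4.35 in DP and 6.53, 5.46 and 6.61 in CD4 SP. B3galt6 passed at a limma adjusted p of 0.0277. Neither C1qtnf12 nor B3galt6 was followed over the alternative settings. These runs were chosen after their values were seen.

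Promoters of rising and falling genes differed in base composition. The median ratio of observed to expected CpG was 0.441 in the promoters of the 100 genes with the largest rise, 0.747 in the 100 with the largest fall and 0.714 over 10167 tested genes. The median GC content was 57.3, 60.5 and 59.3%. These are descriptions without a test.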
